A study of Mus musculus with 6 samples.

Results

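The genes described here are 9 components of insulin, PI3K and FoxO nutrient signalling: Insr, Irs1, Irs2, Akt1, Akt2, Mtor, Foxo1, Foxo3 and Ppargc1a. Their probes were taken as the non-control probes that the array files name with one of these symbols, which gave 19 of the 39429 probes on the array. A probe was measured where every array of one group or of both showed it well above background, which held for 16 of the 19 and for 24290 probes in all. Each of the 9 genes had a measured probe and was tested, among 19060 genes.

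Total RNA of sciatic nerve was hybridised in 3 pools of OGT_SCKO mice and 3 pools of Ctrl littermates, all 1 month of age and of the strain labelled C56 BL6, with 1 array per pool. OGT is the enzyme that attaches the sugar O-GlcNAc to nuclear and cytoplasmic proteins, and the series title places its loss in Schwann cells, the glia that ensheathe peripheral axons. The driver of the deletion, the deleted part of Ogt, the genotype of the littermates and the number of animals in a pool are not given in the sources used here. The pools are described as independent, so p-values measure the spread between pools.

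Insulin and insulin-like growth factors bind receptor tyrosine kinases, which phosphorylate the adaptor proteins IRS1 and IRS2. The adaptors recruit PI3K, whose lipid product activates the AKT kinases. AKT in turn holds FoxO transcription factors outside the nucleus and raises the activity of mTOR complex 1, the kinase complex that couples nutrients to protein and lipid synthesis. In Schwann cells the pathway is known for its part in myelin growth, and several of its proteins are known to carry O-GlcNAc, which is made from a product of glucose metabolism.

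The probes decide which stretch of a transcript each value reports, so the first 30 of the 60 bases are printed, 5′ to 3′, for the genes whose level changed or whose probes differed in the sign of their change. Positions are on the build mm9 of the array files. The exons of that build were not used here.
Ppargc1a A_51_P279038, chr5:51848928-51848987, minus strand: ccccttcaaatggcagcatttccatgaaga
Ppargc1a A_55_P2011702, chr5:51846926-51846985, minus strand: aggccaatgcagctaattttgacagctgca
Mtor A_51_P282179, chr4:147931250-147931309, plus strand: ctgagaaatacgggttttgacttaacttac
Mtor A_52_P67643, chr4:147829016-147829075, plus strand: atgtagtggtagtcacactattattttatg
Akt1 A_55_P2066384, chr12:113892079-113892138, minus strand: gccattgctgcaccatgtcgttttttacaa
Akt2 A_55_P2066518, chr7:28424405-28424464, plus strand: ctgctggCCTTTCCTTACTCCTCGTATTTG
Akt2 A_55_P2025228, chr7:28424412-28424471, plus strand: CCTTTCCTTACTCCTCGTATTTGtacggta
Akt2 A_55_P2066523, chr7:28418226-28418285, plus strand: gtatgccttccagacccatgaccgcctatg
Akt2 A_66_P135179, chr7:28425375-28425434, plus strand: ctgttcctgtagtgaacacacgtgtctacg
Foxo3 A_55_P2129309, chr10:41967288-41967347, minus strand: gtctatagccaagttttgtagagccagtgg
Foxo3 A_55_P2150896, chr10:41905610-41905669, minus strand: taaaagcagaaggaaggtgttatatcagtt
Capitals mark the bases that the first and second Akt2 probes share within the printed stretches. Over their full length these probes share 53 bases, so they are not separate measurements of Akt2.

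Among the 9 genes, Ppargc1a and Mtor were higher and Akt1 was lower in OGT_SCKO nerves, and the receptor, both adaptors, Akt2, Foxo1 and Foxo3 did not pass the test. A gene was called changed at a limma adjusted p under 0.05, taken over all genes tested. By this rule 23.3% of all genes tested were called, 11.2% as higher and 12.1% as lower, beside 33.3% of these 9 genes (2 higher and 1 lower). The median log2 fold change of the 9 was -0.14, beside -0.07 over all genes tested. Values below are log2 signal relative to the 75th percentile of the same array, so 0 marks that percentile, and levels of different genes cannot be compared. In whole nerve, fewer cells of a type and less RNA per cell cannot be told apart.

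**Figure D1:**
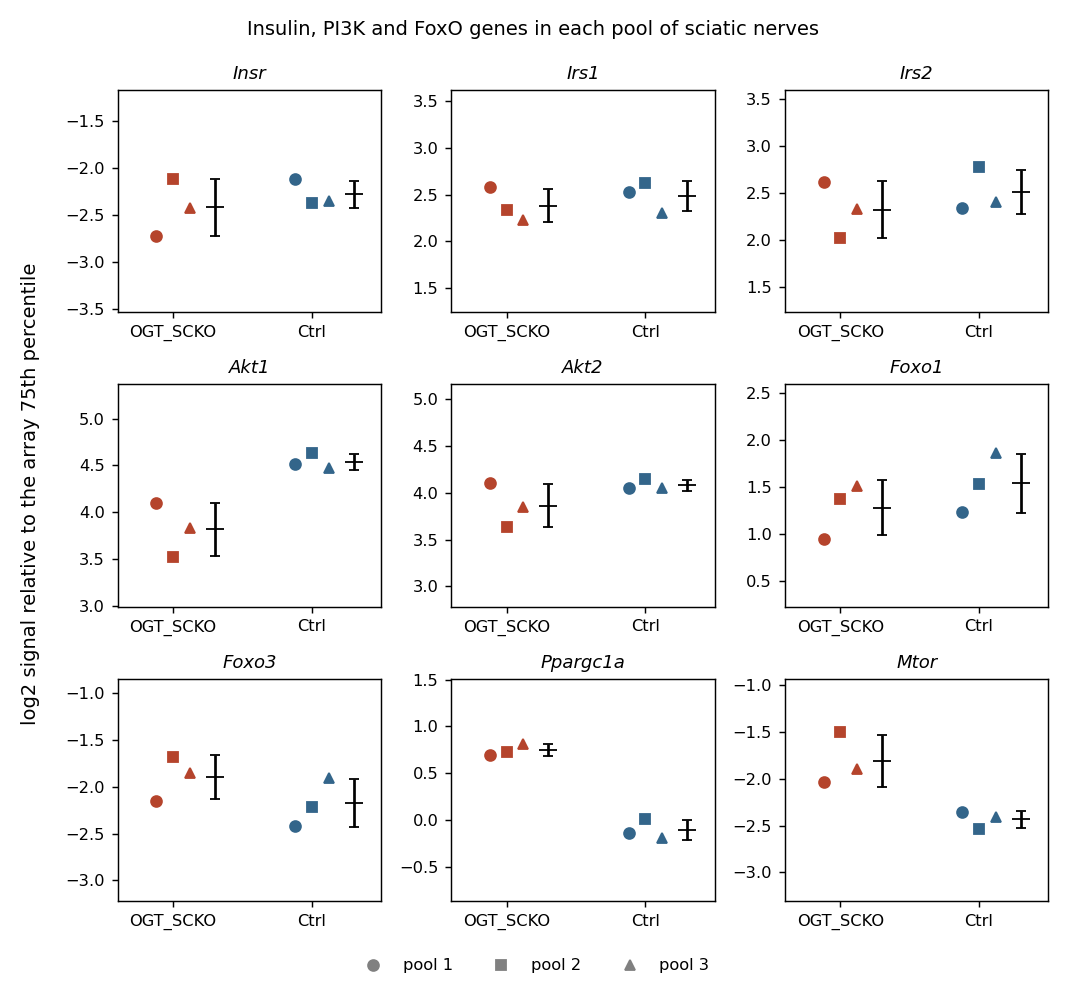
Level of the 9 genes in each of the 6 pools, as log2 signal relative to the array's 75th percentile, with OGT_SCKO pools on the left and Ctrl pools on the right and the mean ± SD (n = 3 each) beside the points. The groups do not overlap in Akt1, Ppargc1a and Mtor and overlap in the 6 other genes.

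Ppargc1a encodes PGC-1α, a transcriptional coactivator of mitochondrial genes that FoxO1 and AKT regulate in liver. Its level was 0.70, 0.73 and 0.82 in OGT_SCKO pools 1 to 3, against -0.13, 0.0085 and -0.19 in Ctrl pools 1 to 3. All 3 OGT_SCKO pools lay above all 3 Ctrl pools, and the pools of each group lay close together (means 0.75 ± 0.061 in OGT_SCKO and -0.10 ± 0.10 in Ctrl, SD, n = 3 each). The log2 fold change was 0.85 (SE 0.11, 95% confidence interval 0.60 to 1.10, limma adjusted p = 0.0029), a level 1.80-fold higher. The second probe, A_55_P2011702, was dimmer and read -2.47, -2.53 and -2.65 in OGT_SCKO, against -4.12, -4.40 and -4.01 in Ctrl, where it was well above background on 2 of the 3 arrays. It was 3.09-fold higher (1.63 on the log2 scale with an SE of 0.14, limma adjusted p = 0.000573 in the fit over probes, where 23.5% of probes were called). The second probe passed the filter only through the OGT_SCKO arrays, where it was high, so its rise is not separate support for the first. Both probes read higher in OGT_SCKO, by unequal amounts, and whether the amounts differ was not tested. With slide as a block the log2 fold change of the first probe was 0.74 (limma adjusted p = 0.0521), which ended the call.

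Mtor encodes the kinase at the core of both mTOR complexes. Its level was -2.04, -1.50 and -1.90 in OGT_SCKO pools 1 to 3, against -2.36, -2.53 and -2.41 in Ctrl pools 1 to 3. The groups did not overlap, and the OGT_SCKO pools were spread more widely than the Ctrl pools (means -1.81 ± 0.28 in OGT_SCKO and -2.43 ± 0.090 in Ctrl, SD, n = 3 each). The log2 fold change was 0.62 with an SE of 0.16 and a 95% confidence interval of 0.24 to 1.00, so the gene rose 1.54-fold (limma adjusted p = 0.0351). The other Mtor probe lies upstream on the plus strand and was designed on an Ensembl transcript. It was well above background on 2 of 3 OGT_SCKO arrays and on 0 of 3 Ctrl arrays, so it was not tested, and it read -4.91, -4.12 and -4.80 in OGT_SCKO, against -5.07, -5.98 and -5.94 in Ctrl. Each Ctrl reading was replaced by the lowest signal that counted as above background on its array, where that was higher. Against these values its OGT_SCKO mean was 1.30-fold higher. That mean includes an OGT_SCKO array on which the probe was dim. Higher values at both probes therefore rest on 1 tested probe and 1 such comparison.

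Akt1 encodes the AKT isoform known mainly for its part in growth and survival. Its level was 4.10, 3.52 and 3.84 in OGT_SCKO pools 1 to 3, against 4.52, 4.63 and 4.47 in Ctrl pools 1 to 3. Every OGT_SCKO pool lay below every Ctrl pool, with the wider spread again in OGT_SCKO (means 3.82 ± 0.29 in OGT_SCKO and 4.54 ± 0.085 in Ctrl, SD, n = 3 each). Akt1 fell 1.65-fold, to 60.7% of the Ctrl level (log2 fold change -0.72 with an SE of 0.16, 95% confidence interval -1.11 to -0.34, limma adjusted p = 0.0228). The array carries 1 probe for it.

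Groups that do not overlap were common on these arrays and made up 45.7% of all genes tested. Of all genes, 20.4% had every OGT_SCKO pool above every Ctrl pool, and 25.3% had every OGT_SCKO pool below. Ppargc1a and Mtor belong to the first kind and Akt1 to the second. For each of them the exact two-sided permutation test over pools gave p = 0.1, the smallest that 3 against 3 pools allow. The calls of Akt1 and Mtor held in only some of the fits that left out 1 pool. Without OGT_SCKO 1 or OGT_SCKO 2 both genes passed. Over all such fits the log2 fold change ran from -0.86 to -0.57 for Akt1 and from 0.46 to 0.73 for Mtor. Leaving out OGT_SCKO 3, Ctrl 1, Ctrl 2 or Ctrl 3 gave Akt1 limma adjusted p = 0.0798, 0.0708, 0.0764 and 0.0689 and Mtor limma adjusted p = 0.094, 0.0862, 0.109 and 0.105, in the same order. Slide was uneven between the groups, since slide 1 held the 3 OGT_SCKO pools and Ctrl 2 and slide 2 held Ctrl 1 and Ctrl 3. With slide as a block, so that Ctrl 2 was the only control on the slide of the OGT_SCKO pools, Akt1 had a log2 fold change of -0.82 (limma adjusted p = 0.11) and Mtor one of 0.72 (limma adjusted p = 0.136). Among the arrays of slide 1 alone the same 3 fold changes had limma adjusted p = 0.227 for Akt1, 0.259 for Mtor and 0.158 for Ppargc1a.

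**Figure D2:**
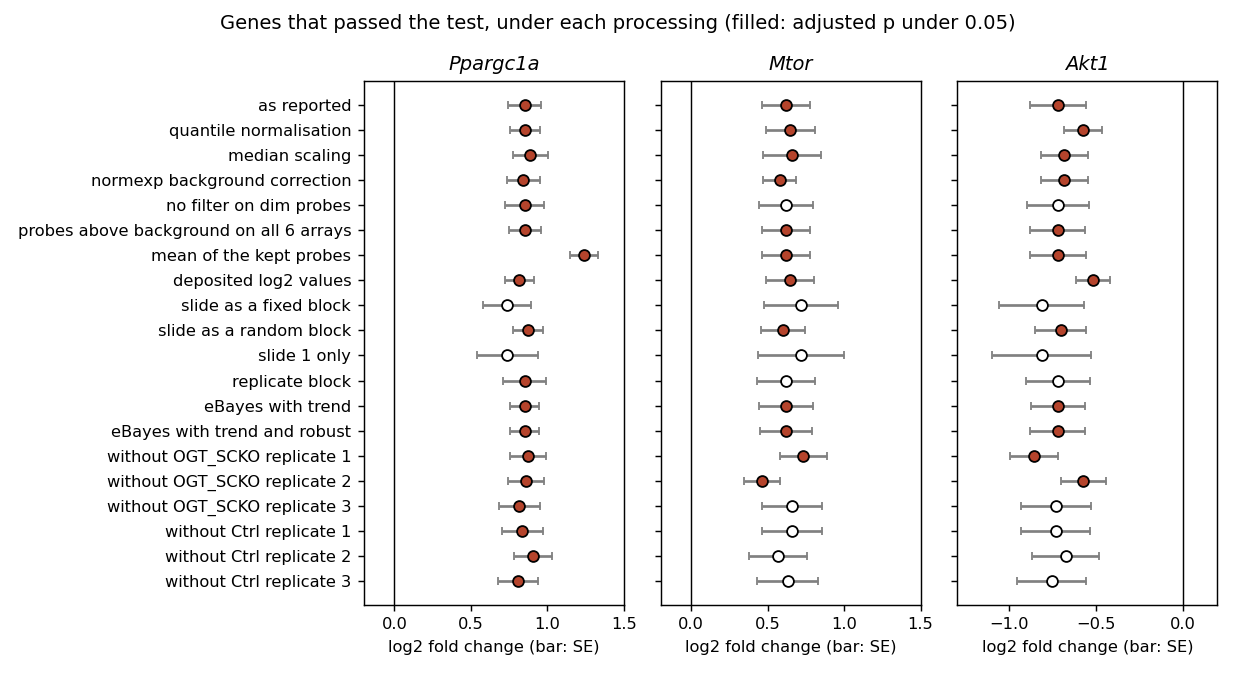
Log2 fold change (OGT_SCKO over Ctrl) of Ppargc1a, Mtor and Akt1 under each way of processing the arrays, with the SE as bars and filled points where the limma adjusted p is under 0.05. The sign is the same in every row, Ppargc1a keeps its call without any single pool, and with slide as a fixed block all 3 points are open.

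Akt2 encodes the AKT isoform known mainly for insulin-stimulated glucose uptake, and its probes did not move together. The probe that represents the gene, A_55_P2066518, read 4.10, 3.64 and 3.84 in OGT_SCKO, against 4.04, 4.15 and 4.04 in Ctrl. These groups overlap, and the log2 fold change of -0.22 (SE 0.14, 95% confidence interval -0.55 to 0.12) did not pass (limma adjusted p = 0.283). The probe that overlaps it in sequence had a log2 fold change of -0.08 (limma adjusted p = 0.603 over probes). A probe further upstream, A_55_P2066523, read 0.33, 0.48 and 0.60 in OGT_SCKO, against 0.61, 0.74 and 0.73 in Ctrl, a difference of -0.22 that did not pass although the groups do not overlap (limma adjusted p = 0.195 over probes). The 4th probe, A_66_P135179, lies furthest along the plus strand of the 4 and was designed on an Ensembl transcript. It read -1.34, -1.33 and -1.39 in OGT_SCKO, against -1.80, -2.00 and -1.97 in Ctrl. All 3 OGT_SCKO pools stood above the Ctrl pools at this probe, with a log2 fold change of 0.57 and an SE of 0.11, a 1.49-fold rise (limma adjusted p = 0.0109 over probes). Akt2 thus had 3 probes with a negative and 1 with a positive fold change, and only the positive one passed. The first and second of the negative probes overlap in sequence and are not separate measurements. The difference between the probes was not tested.

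**Figure D3:**
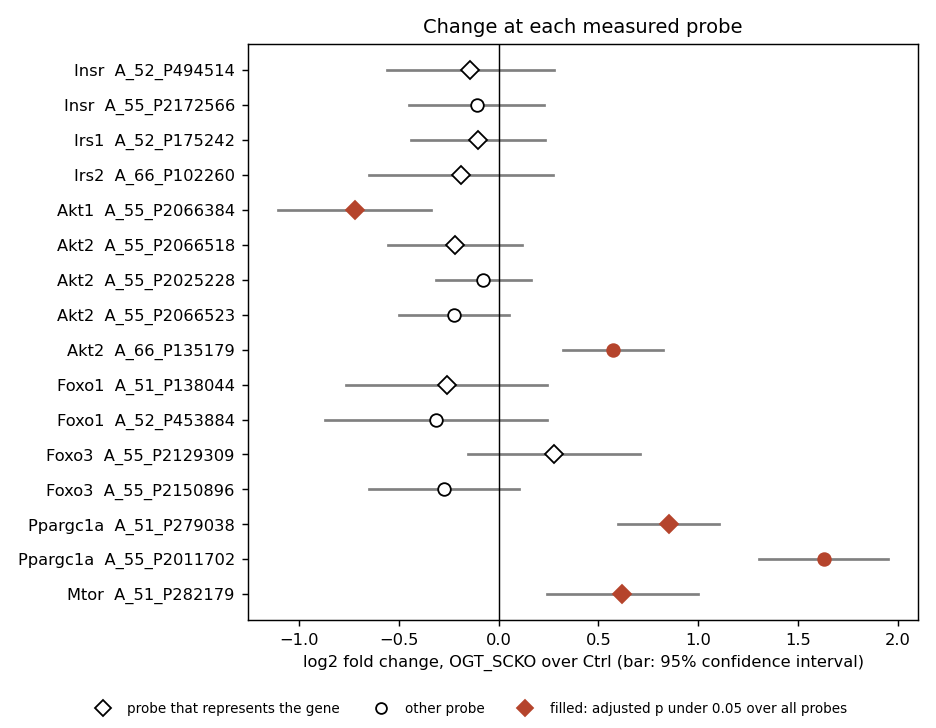
Log2 fold change (OGT_SCKO over Ctrl) with its 95% confidence interval at each of the 16 measured probes of the 9 genes. The probes that represent a gene are diamonds, and filled symbols have a limma adjusted p under 0.05 over all probes: Akt1 below 0, and the last Akt2 probe, both Ppargc1a probes and the Mtor probe above 0.

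Insr encodes the insulin receptor. It read -2.72, -2.12 and -2.42 in OGT_SCKO pools 1 to 3, against -2.11, -2.38 and -2.35 in Ctrl pools 1 to 3. The groups overlap, and the log2 fold change was -0.14 (SE 0.18, 95% confidence interval -0.56 to 0.28, limma adjusted p = 0.578). A second Insr probe gave -0.11 (limma adjusted p = 0.593 over probes), and the third was dim on all 6 arrays. Changes of Insr within that interval were not detectable with 3 pools a group.

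The adaptors Irs1 and Irs2, which link the receptor to PI3K, overlapped between the groups as well. Irs1 read 2.57, 2.33 and 2.23 in OGT_SCKO, against 2.53, 2.62 and 2.30 in Ctrl. Its log2 fold change was -0.11 (SE 0.14, 95% confidence interval -0.44 to 0.23, limma adjusted p = 0.606), and its other probe was dim on all 6 arrays. The level of Irs2 was 2.62, 2.02 and 2.32 in OGT_SCKO, against 2.34, 2.78 and 2.41 in Ctrl. OGT_SCKO 1 was above 2 of the Ctrl pools, and OGT_SCKO 2 and OGT_SCKO 3 were below them all. The log2 fold change of Irs2 was -0.19 (SE 0.19, 95% confidence interval -0.65 to 0.27, limma adjusted p = 0.497).

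Foxo1 and Foxo3 encode the forkhead factors that AKT phosphorylates. Foxo1 read 0.95, 1.37 and 1.52 in OGT_SCKO, against 1.23, 1.53 and 1.86 in Ctrl. The pools of both groups were spread widely and overlap, with a log2 fold change of -0.26 (SE 0.21, 95% confidence interval -0.77 to 0.25, limma adjusted p = 0.39). Its second probe had -0.31 (limma adjusted p = 0.348 over probes). The probes of Foxo3 had opposite signs. A_55_P2129309, designed on a cDNA clone, read -2.15, -1.68 and -1.86 in OGT_SCKO, against -2.41, -2.21 and -1.90 in Ctrl (log2 fold change 0.28, SE 0.18, limma adjusted p = 0.291). A_55_P2150896, designed on the RefSeq transcript, read -3.58, -3.96 and -3.60 in OGT_SCKO, against -3.63, -3.24 and -3.44 in Ctrl (log2 fold change -0.27, limma adjusted p = 0.239 over probes). Neither Foxo3 probe passed and the groups overlap at both, so no direction is given for the gene.

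RefSeq promoter windows (GRCm38.p6, 250 bases before to 50 after the start site) matched 8 of the 9 genes with 12 windows, and Insr had none among them. They were searched on both strands for an AP-1 site (TGANTCA), a FoxO core (TGTTTAC), an insulin response element core (TGTTTTG), an E-box (CACGTG) and a CRE core (TGACG). Stretches of 30 bases are printed for the 2 adaptors, which hold the same pair of motifs, and for the members that changed and hold a motif, with the match in capitals.
Irs1, chr1:82291533-82291562, minus strand, insulin response element core: ggctccgtcacgTGTTTTGctcctctggag
Irs2, chr8:11008949-11008978, minus strand, insulin response element core: agagtcacgtgtTGTTTTGctcttagttca
Akt1, chr12:112675028-112675057, minus strand, FoxO core: aatctaccctctTGTTTACactcctggtga
Ppargc1a, chr5:51567758-51567787, minus strand, CRE core: aggtgccctcccaCGTCActgagctccagt
The Irs1 window held the insulin response element core at 2 places, of which the printed one overlaps an E-box, and the Irs2 window held 1 such core beside an E-box. An insulin response element core occurs in 6.28% of 32851 RefSeq promoter windows, an E-box in 7.15% and both together in 0.408%. The FoxO core, in 1 of 2 Akt1 windows, occurs in 3.65% of all windows. The CRE core, a sequence through which cAMP signalling is known to act, occurs in 20.8% of them and was found in windows of Irs1, Akt2, Foxo3 and Ppargc1a. No window of the 8 genes held the AP-1 letters, which occur in 7.81% of all windows, and none of the 5 motifs stood in the windows of Foxo1 or Mtor. The matches are descriptions of these windows and say nothing of binding.

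Other genes of the pathway moved in both directions and about as often as genes in general. Of 117 listed genes other than the 9, 109 were tested, of which 13 rose and 12 fell. That is 22.9% of them, beside 23.3% of all genes tested, and their median log2 fold change was 0.02, beside -0.07.

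Neither of the 2 tested receptors, Igf1r and Igf2r, passed at an adjusted p under 0.05, and 1 of them did at an unadjusted p under 0.05. Igf1r, the receptor of insulin-like growth factors, had a log2 fold change of 0.20 (limma adjusted p = 0.268). Igf2r, which clears IGF2, had 0.28 (limma adjusted p = 0.116). Among 15 adaptors and receptor brakes, 1 rose and 1 fell, which is 13.3%, beside 23.3% of all genes tested. The docking protein gene Gab1 fell 1.36-fold (limma adjusted p = 0.0348), and the adaptor gene Sh2b2 rose 1.31-fold (limma adjusted p = 0.042).

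Among 12 PI3K subunits and lipid phosphatases 3 rose and none fell, which is 25.0%, close to the 23.3% of all genes tested. A positive fold change was found in 11 of the 12, beside 43.3% of all genes tested, and the median log2 fold change of the list was 0.24, beside -0.07. The regulatory subunit Pik3r3 rose 1.45-fold (limma adjusted p = 0.0242) and the catalytic subunit Pik3cb 1.66-fold (limma adjusted p = 0.0385). Pik3r5, which regulates the PI3K form that G-protein-coupled receptors activate, rose 2.06-fold (limma adjusted p = 0.0361), was well above background on 1 of 3 Ctrl arrays and had limma adjusted p = 0.161 with normexp background correction. Pik3r1, the main regulatory subunit in most tissues, had a log2 fold change of 0.45 and did not pass (limma adjusted p = 0.138).

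Of 11 genes of the AKT kinase axis, 2 rose and none fell, which is 18.2%, beside 23.3% of all genes tested. Trib3, a pseudokinase known to bind AKT, read -3.05, -2.83 and -2.92 in OGT_SCKO, against -3.65, -3.61 and -3.63 in Ctrl. Its groups stood well apart, and it rose 1.62-fold (limma adjusted p = 0.00559). The AKT substrate gene Tbc1d4 rose 1.39-fold (limma adjusted p = 0.0467), and its second probe did not pass (log2 fold change 0.18).

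Of 26 genes of the mTOR complexes and their inputs, 3 rose and 4 fell, which is 26.9%, beside 23.3% of all genes tested. Their median log2 fold change was 0.00, beside -0.07. Akt1s1 encodes PRAS40, an inhibitor of mTOR complex 1 that AKT phosphorylates. It read 1.72, 1.59 and 2.17 in OGT_SCKO, against 0.61, 0.97 and 0.78 in Ctrl, and rose 2.06-fold (limma adjusted p = 0.0096). Tsc1, a subunit of the TSC complex that restrains mTOR complex 1, read -0.15, 0.18 and -0.08 in OGT_SCKO, against -0.70, -0.90 and -0.67 in Ctrl. Tsc1 rose 1.67-fold (limma adjusted p = 0.0106). Rragb, a Rag GTPase that brings mTOR complex 1 to the lysosome, read -5.21, -4.56 and -4.47 in OGT_SCKO, against -1.97, -2.12 and -1.92 in Ctrl. It fell 6.70-fold (limma adjusted p = 0.000454), was well above background on 2 of 3 OGT_SCKO arrays and fell 3.08-fold with normexp background correction. Rragb has a close relative in Rraga, and how far its single probe on chromosome X separates them was not tested. Nprl2, a subunit of the GATOR1 complex that turns the Rag GTPases off, fell 1.35-fold (limma adjusted p = 0.0327). Rptor, a subunit of mTOR complex 1, had a log2 fold change of 0.32 and did not pass (limma adjusted p = 0.228). Rictor, a subunit of mTOR complex 2, had 0.02 and did not pass either (limma adjusted p = 0.927). Not every other subunit on the list is named here.

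Of 18 FoxO factors and genes known as FoxO targets, 2 rose and 5 fell, which is 38.9%, beside 23.3% of all genes tested. The median log2 fold change of the list was -0.41, beside -0.07, and the list was not tested as a set. The members moved in different directions. Trim63, a ubiquitin ligase known as a FoxO target of wasting muscle, read -3.99, -3.62 and -3.66 in OGT_SCKO, against -2.43, -2.30 and -2.34 in Ctrl, and fell 2.64-fold (limma adjusted p = 0.000973). Fbxo32, a second such ligase, read -2.47, -2.46 and -2.42 in OGT_SCKO, against -3.19, -3.03 and -3.03 in Ctrl, and rose 1.55-fold (limma adjusted p = 0.00702). These 2 muscle-known ligases thus went opposite ways. The stress and DNA damage gene Gadd45a rose 2.25-fold (limma adjusted p = 0.00971). The factor gene Foxo4 fell 2.28-fold (limma adjusted p = 0.00775), was well above background on 2 of 3 OGT_SCKO arrays, and fell 1.44-fold with normexp background correction, where it did not pass (limma adjusted p = 0.266).

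Around Ppargc1a, 1 of 10 tested PGC-1 partners rose and 1 fell. Nrf1, a nuclear regulator of mitochondrial genes, rose 1.44-fold (limma adjusted p = 0.0345), and its 3 probes had log2 fold changes of 0.53 to 0.60. The mitochondrial deacetylase gene Sirt3, which PGC-1α is known to induce in muscle, read 0.99, 0.96 and 1.10 in OGT_SCKO, against 1.73, 1.66 and 1.59 in Ctrl. Sirt3 fell 1.56-fold while Ppargc1a rose (limma adjusted p = 0.00685). Ppargc1b was not tested. Of 9 genes of AMPK and its upstream kinases 1 fell, the regulatory subunit gene Prkag2, by 1.31-fold (limma adjusted p = 0.0472). Of 6 genes of glucose uptake and storage 1 rose, the glucose transporter gene Slc2a3, by 1.59-fold (limma adjusted p = 0.0246). The shares called were 20.0% of PGC-1 partners, 11.1% of AMPK genes and 16.7% of glucose genes, beside 23.3% of all genes tested.

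Of the 19 pathway genes named above that passed, Trib3, Akt1s1, Tsc1, Rragb, Trim63, Fbxo32, Gadd45a, Foxo4 and Sirt3 also passed without any single pool. The other 10 failed in 3 to 6 of the 6 fits that left out a pool, with limma adjusted p-values of 0.0523 to 0.155 there, and leaving out each of the 6 pools ended at least 1 of these calls. With slide as a block 3 of the 19 passed, namely Rragb, Trim63 and Gadd45a. The filter kept Rragb and Foxo4 only through the Ctrl arrays, where they were high. That they passed in these fits is therefore no separate support for their calls.

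**Figure D4:**
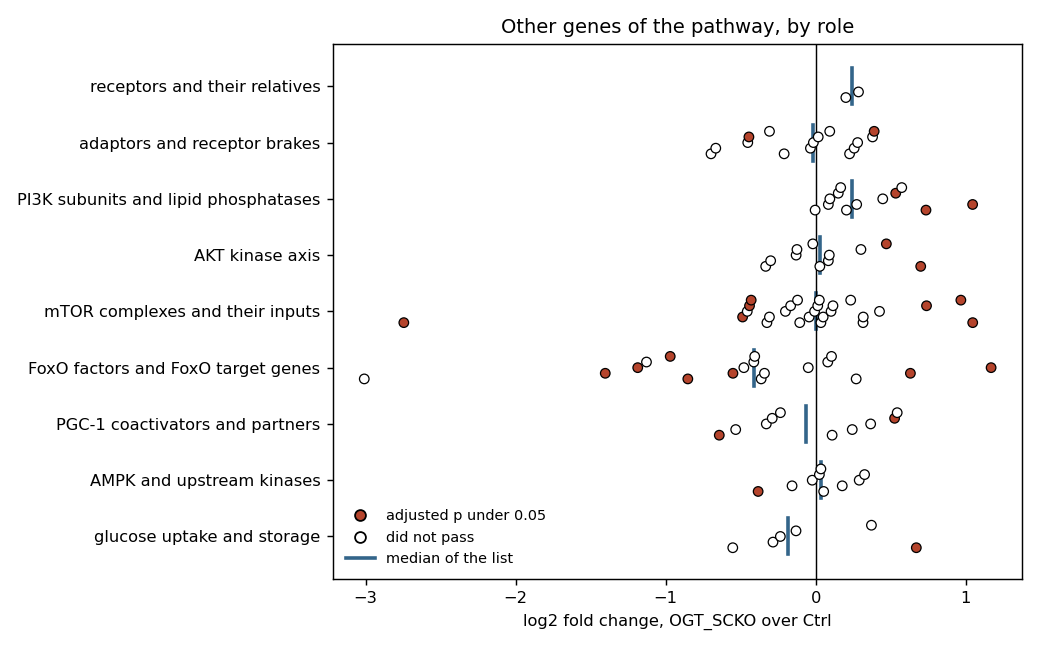
Log2 fold change (OGT_SCKO over Ctrl) of the 109 tested pathway genes other than the 9, in rows by role, with a bar at each list's median and filled points where the limma adjusted p is under 0.05. Filled points lie on both sides of 0 in the adaptor, mTOR, FoxO and PGC-1 rows. The filled points of the PI3K, AKT and glucose rows lie above 0, and that of the AMPK row lies below.

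Markers of other cells in the nerve moved between the groups too. The summed linear signal of 11 tested skeletal muscle markers, as a multiple of the array's 75th percentile, ran from 2.77 to 4.80 in OGT_SCKO and from 6.41 to 7.51 in Ctrl, and 7 of the 11 fell. That of 9 adipocyte markers ran from 0.61 to 2.77 in OGT_SCKO and from 3.85 to 20.4 in Ctrl. Of the 9, 5 fell, namely Fabp4, Cidec, Retn, Car3 and the hormone gene Adipoq. Adipoq and Cidec were well above background on 1 of 3 OGT_SCKO arrays each, and Retn and Car3 on 2 of 3. The filter kept Adipoq, Cidec, Retn and Car3 only through Ctrl, where they were high, so their calls are no separate support. Over all genes tested 12.1% were called lower. Such a sum is weighted to its brightest probes, here Pvalb for muscle and, in Ctrl, Cfd for adipocytes. Pvalb fell, and Cfd did not pass (limma adjusted p = 0.0613). The muscle markers Mylpf and Atp2a1 had positive fold changes and did not pass. Ckm, Myh1, Myh2 and Lep were not tested. Ppargc1a and Fbxo32, which muscle expresses, were higher where the muscle sum was lower, while Trim63 and the muscle sum were both lower. The part of muscle and fat RNA in the values of the 9 genes was not tested.

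The defining markers of Schwann cells were present on all 6 arrays. Their summed signal over 10 markers ran from 308 to 492 in OGT_SCKO and from 470 to 618 in Ctrl, with Ngfr higher, S100b, Ncam1 and Prx lower and 6 that did not pass. The sum over 7 macrophage markers ran from 34.0 to 44.4 in OGT_SCKO and from 36.5 to 43.3 in Ctrl, with Cx3cr1 higher. Endothelial markers summed to 9.21 to 11.8 in OGT_SCKO and 14.0 to 16.6 in Ctrl, and none of the 6 passed (2 at an unadjusted p under 0.05 by limma). The sums of 4 perineurial markers ran from 28.9 to 35.6 in OGT_SCKO and from 39.4 to 51.5 in Ctrl. For fibroblasts the range was 139 to 247 in OGT_SCKO and 197 to 308 in Ctrl. Dpt fell 1.99-fold (limma adjusted p = 0.00449), and the other 4 fibroblast markers did not pass. For mural cells it was 9.51 to 13.3 in OGT_SCKO and 11.7 to 16.7 in Ctrl. The only mural marker that passed went the other way, since Pdgfrb rose 1.61-fold (limma adjusted p = 0.00658). Acta2, the brightest mural marker, was lower and did not pass (limma adjusted p = 0.0668). Erythroid markers summed to 55.3 to 71.0 in OGT_SCKO and 85.2 to 151 in Ctrl.

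**Figure D5:**
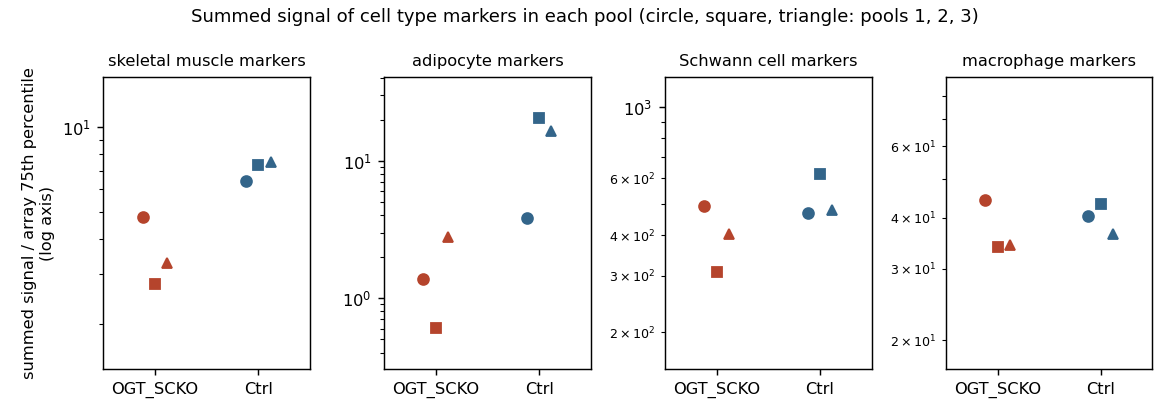
Summed linear signal of skeletal muscle, adipocyte, Schwann cell and macrophage markers in each pool, relative to the array's 75th percentile on a log axis, with OGT_SCKO on the left and Ctrl on the right of each panel. The groups do not overlap for muscle and adipocyte markers and overlap for Schwann cell and macrophage markers.

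Ogt itself fell 2.42-fold in OGT_SCKO nerves (log2 fold change -1.28, limma adjusted p = 0.00117). Its level was -0.89, -1.01 and -1.01 in OGT_SCKO, against 0.46, 0.35 and 0.11 in Ctrl. A second Ogt probe had a log2 fold change of -0.99 (limma adjusted p = 0.0241 over probes). Since the deleted part is not given, neither probe can be placed inside or outside it. A probe outside it may not report the deletion. Across genes, pools of the same group correlated at 0.979 to 0.995 and pools of different groups at 0.949 to 0.976.

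The genes most like each changed member were found by the Euclidean distance between the 6 values, each gene centred on its own mean. Since the 6 values fall into 2 groups, a small distance mainly says that the group difference is of the same size. Nearest to Ppargc1a were Ttll5 (distance 0.0809 log2 units), Prc1 (0.0965) and Kifc1 (0.111), with log2 fold changes of 0.82 to 0.88. Renbp (0.0978), Iqsec1 (0.105) and Rab11fip3 (0.109) lay nearest to Akt1, with log2 fold changes of -0.75 to -0.71. Around Mtor stood Fam98b (0.099), Plaa (0.121) and Glyr1 (0.125), of which Fam98b passed and Plaa and Glyr1 did not (limma adjusted p = 0.0246, 0.0518 and 0.0514).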

How the data were processed

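Sciatic nerve RNA of 3 OGT_SCKO and 3 Ctrl pools was hybridised to 1-colour Agilent arrays. The deposited intensity values were made by the authors with Agilent Feature Extraction 11.5.1.1, per the file headers and the submitters' processing notes, with the background subtracted and no normalisation between arrays. Other deposited flags state per spot whether it is a control, an outlier, saturated or well above background. The authors' deposited log2 values have the same median in each column and were an alternative only. The sources used here do not say how they were made. The 75th percentile of the intensity ran from 2749 to 6136 between arrays, 59.9% to 66.1% of the 43020 non-control spots were well above background and 0 were saturated. Precision is limited by the 6 arrays.

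The main value was log2 of the processed signal minus that of the array's 75th percentile. Control and outlier spots were left out, and a probe spotted several times took the mean of its spots. Probes were kept where every array of one group or of both showed them well above background, and the brightest kept probe represented a gene. Names came from a RefSeq table of GRCm38.p6, which matched 27655 probes, and otherwise from the files. The comparison was a limma 3.58.1 linear model with empirical Bayes moderation (R 4.3.3) and Benjamini-Hochberg adjustment over 19060 genes, or over 24289 probes for each probe of the 9 genes. The fits were tested on simulated data. A probe dim throughout 1 group was tested where every array of the other group showed it well above background. The test used all 6 readings as they stood. For a separate fold, readings of the dim group below the array's lowest signal counted as above background were set to that signal. Rragd, among the mTOR genes that rose, was well above background on 0 of 3 Ctrl arrays (log2 fold change 0.97, limma adjusted p = 0.0393). Against Ctrl readings set in that way it was 1.20-fold higher. Alternatives were other scalings, normexp background correction (offset 50), other probe filters, the mean of kept probes, the deposited values, slide or replicate number as a block, other variance models, stricter thresholds and each pool left out. All probes of the 9 genes are named, and Rragd is named for its dim Ctrl readings. From each wider list up to 4 called genes with the smallest p are named, or the 1 with the smallest p where none was called, plus Ogt, Igf1r, Pik3r1, Rptor, Rictor, Foxo4, Ppargc1b and, per changed member, the 3 nearest genes. The members and lists were chosen with earlier results of these data known. A gene that the rule names is not reported here.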

Additional observations from a re-analysis of the deposited data

How the results depend on the processing

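All values are OGT_SCKO over Ctrl, with limma's adjusted p. No fold change of Ppargc1a, Mtor, Akt1, Irs1, Irs2 or Foxo1 changed sign under any alternative run. Insr, near 0, turned to 0.029 with normexp and, over the fits without 1 pool, ran from -0.29 to 0.0092. With the mean of a gene's probes, Akt2 turned to 0.014, and Foxo3, whose 2 probes have opposite signs, moved to 0.0018 against 0.28 at its brightest probe. Without 1 pool, Akt1 ran from -0.86 to -0.57, Mtor from 0.46 to 0.73 and Ppargc1a from 0.81 to 0.91, and calls ran from 1 to 2 higher and 0 to 1 lower among the 9 genes and from 5 to 11 higher and 5 to 14 lower among the wider genes. With slide as a block or slide 1 alone, Ppargc1a was 0.74, Mtor 0.72 and Akt1 -0.82, and 0 of the 9 passed (3 and 2 at an unadjusted p under 0.05). The wider genes then had 3 higher and 2 lower with the block, and 1 of each on slide 1. With no filter on dim probes, Akt1 (-0.72, limma adjusted p = 0.0597) and Mtor (0.62, limma adjusted p = 0.0862) lost their calls, leaving 1 higher and 0 lower among the 9, and 5 of each among the wider genes. Under an adjusted p under 0.01, Ppargc1a alone of the 9 passed (1 higher, 0 lower), and 4 of each wider, beside 1735 of all genes. At 2-fold or more, Ppargc1a (0.85), Mtor and Akt1 did not count (0 higher, 0 lower), and 3 of each wider did, beside 1277 of all genes. Normexp left 8 wider genes higher. Replicate numbers did not pair the pools: same-numbered pools deviated with correlations of -0.269, -0.527 and 0.0635. With the replicate block, Akt1 (limma adjusted p = 0.0888) and Mtor (0.121) lost their calls and Ppargc1a kept its own (0.0386), so 1 was higher and 0 lower, with 0 higher (15 at an unadjusted p under 0.05) and 3 lower among the wider genes. With either slide setting, the replicate block or no filter, 1 of the 9 was lower at an unadjusted p under 0.05. Over all genes 4438 were called, with 1226 with slide as a block, 406 on slide 1, 1475 with the replicate block, 2629 with no filter, 2722 with normexp, and 1974 to 5629 without 1 pool. At an unadjusted p under 0.05 the reported limma fit held 7368 of the 19060 genes tested. The median log2 fold change of all genes was -0.07, and -0.01 with quantile normalisation. With 3 pools a group, and with probes of Rragb, Foxo4 and Pik3r5 near background in 1 group, small differences were not detectable. The filter kept those probes only through the group where they were high.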
